A study of Mus musculus with 12 samples.

Results

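Genes that mark neutrophils, 8 in all, were followed through 12 RNA-seq libraries of lymphatic endothelial cells (LECs) sorted from mouse lung. The 8 genes, S100a8, S100a9, Retnlg, Csf3r, Ly6g, Lcn2, Ngp and Camp, were found by symbol among the 52636 Ensembl genes of the count files, with 1 identifier each. Mice carrying the Prox1-EGFP reporter, which puts green fluorescent protein under the control of the LEC transcription factor gene Prox1, breathed cigarette smoke (CS) or room air (RA) from 6 weeks of age. Exposure lasted 8 weeks in the acute groups, labelled 8wk for age, and 24 weeks or more in the chronic groups, labelled Aged. Live cells that were negative for the lineage markers and EPCAM, and positive for CD31 and GFP, were sorted. Acute exposure gave 2 CS and 2 RA libraries and chronic exposure 5 CS and 3 RA libraries, named here by sex (F or M) and, where given, by number. Each acute library pooled the cells of 2 to 5 mice, whereas chronic mice were not pooled. The shallowest library, chronic CS F, held 18821438 counts and the deepest, acute RA F, 56998590, so that 3 counts correspond to 0.158 and 0.0507 counts per 1000000 (CPM), respectively. CPM values use the total count scaled by the TMM factor of edgeR.

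Neutrophils are short-lived phagocytes made in the bone marrow that enter the lung from the blood, and smoke exposure is a known setting for their recruitment. Their granule proteins are made in order: azurophil granule proteins such as myeloperoxidase in promyelocytes, then secondary granule proteins such as those of Ngp, Camp and Ltf, while S100a8, S100a9, Csf3r and Cxcr2 transcripts remain abundant in mature cells. In a bulk library, fewer neutrophils and less RNA per neutrophil cannot be told apart.

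S100a8 and S100a9 encode the subunits of calprotectin, a calcium and zinc binding protein that fills the neutrophil cytosol. On chromosome 3 of GRCm38, S100a8 (ENSMUSG00000056054, forward strand) spans chr3:90668978-90670035 and S100a9 (ENSMUSG00000056071, reverse strand) spans chr3:90692632-90695721, with 22.6 kb between them. Retnlg (chr16:48872621-48874496) encodes a resistin-like secreted protein, Csf3r (chr4:126024550-126044440) the receptor for granulocyte colony-stimulating factor, and Ly6g (chr15:75155240-75159126) the surface antigen used to gate mouse neutrophils. Lcn2 (chr2:32384633-32388252) encodes lipocalin-2, which binds bacterial siderophores and is also made by epithelium and other stimulated cells. Ngp (chr9:110419747-110423012) and Camp (chr9:109847379-109849617) encode secondary granule proteins of the cathelicidin family and lie 570.1 kb apart. None of the 8 genes overlapped another gene in GENCODE M21. Ly6g belongs to a family of similar genes, so its counts are less certain.

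The start regions of S100a8 and S100a9, whose levels ran together, and of Lcn2, whose level did not run with theirs, are shown because the data set these genes apart. Each run holds 250 bases before and 50 bases after a RefSeq start site, read 5′ to 3′ along the gene, on GRCm38.p6. Capitals mark letters found on either strand that match TTNCNNAA (a C/EBP-type motif), GAGGAA (a PU.1-type motif) or TATAAA (the TATA box). C/EBP factors and PU.1 are the main transcription factors of the neutrophil and myeloid lineages. The windows are chr3:90668821-90669120 on the forward strand, chr3:90695672-90695971 on the reverse strand and chr2:32387690-32387989 on the reverse strand.
S100a8: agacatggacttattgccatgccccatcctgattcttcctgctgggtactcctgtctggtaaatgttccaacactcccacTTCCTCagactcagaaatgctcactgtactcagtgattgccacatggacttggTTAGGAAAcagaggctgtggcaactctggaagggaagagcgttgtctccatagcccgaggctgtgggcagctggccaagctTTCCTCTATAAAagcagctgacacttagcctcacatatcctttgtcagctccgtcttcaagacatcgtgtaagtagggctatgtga
S100a9: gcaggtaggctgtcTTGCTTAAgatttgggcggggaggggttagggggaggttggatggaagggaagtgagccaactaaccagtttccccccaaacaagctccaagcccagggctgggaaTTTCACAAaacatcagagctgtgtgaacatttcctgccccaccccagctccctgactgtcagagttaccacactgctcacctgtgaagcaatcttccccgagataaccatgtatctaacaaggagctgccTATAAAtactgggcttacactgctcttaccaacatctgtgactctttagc
Lcn2: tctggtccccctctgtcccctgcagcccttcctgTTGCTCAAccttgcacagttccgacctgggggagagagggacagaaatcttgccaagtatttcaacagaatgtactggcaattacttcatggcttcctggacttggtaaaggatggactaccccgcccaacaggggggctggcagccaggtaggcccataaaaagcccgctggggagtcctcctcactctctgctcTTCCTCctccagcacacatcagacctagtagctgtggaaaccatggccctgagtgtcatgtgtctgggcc
In the S100a8 window, the TATA box began 30 bases before the start site, directly after a PU.1-type match at 36 bases on the opposite strand. A C/EBP-type match began 117 bases and a further PU.1-type match 170 bases before it. The S100a9 window held C/EBP-type matches at 130 and 236 bases and TATAAA at the start site itself. The Lcn2 window held a C/EBP-type match at 216 bases and a PU.1-type match at 20 bases, and no TATAAA. Of 32817 windows of this length in the genome, 40.7% held the first motif, 28.3% the second and 13.6% the third, so these matches are common and are given as a description of the sequence.

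Across the 12 libraries the members fell into 3 patterns, which the plot of CPM by library shows. S100a8, S100a9, Retnlg and Csf3r were detected in almost every library, were highest in acute CS F, and were higher in chronic CS than in chronic RA. Ly6g, Ngp and Camp stayed below 1 CPM outside acute CS F. Lcn2 was abundant in every library. By FPKM, which is CPM per kilobase of exon, the order in chronic RA was Lcn2 at 171 ± 92.7 (SD, n = 3), S100a9 at 9.15 ± 3.73, S100a8 at 4.49 ± 2.32, Retnlg at 0.830 ± 0.651 and Csf3r at 0.449 ± 0.353. Retnlg and Csf3r overlapped within 1 SD. S100a9 and S100a8 did so between libraries, but within each library S100a9 was the higher. Chronic CS kept Lcn2 first at 164 ± 39.5 FPKM (SD, n = 5), followed by S100a9 at 66.6 ± 33.5, S100a8 at 36.7 ± 19.9, Csf3r at 6.51 ± 5.23 and Retnlg at 4.91 ± 1.77. Here too, Csf3r and Retnlg overlapped within 1 SD, and S100a9 was above S100a8 in each library.

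**Figure D1:**
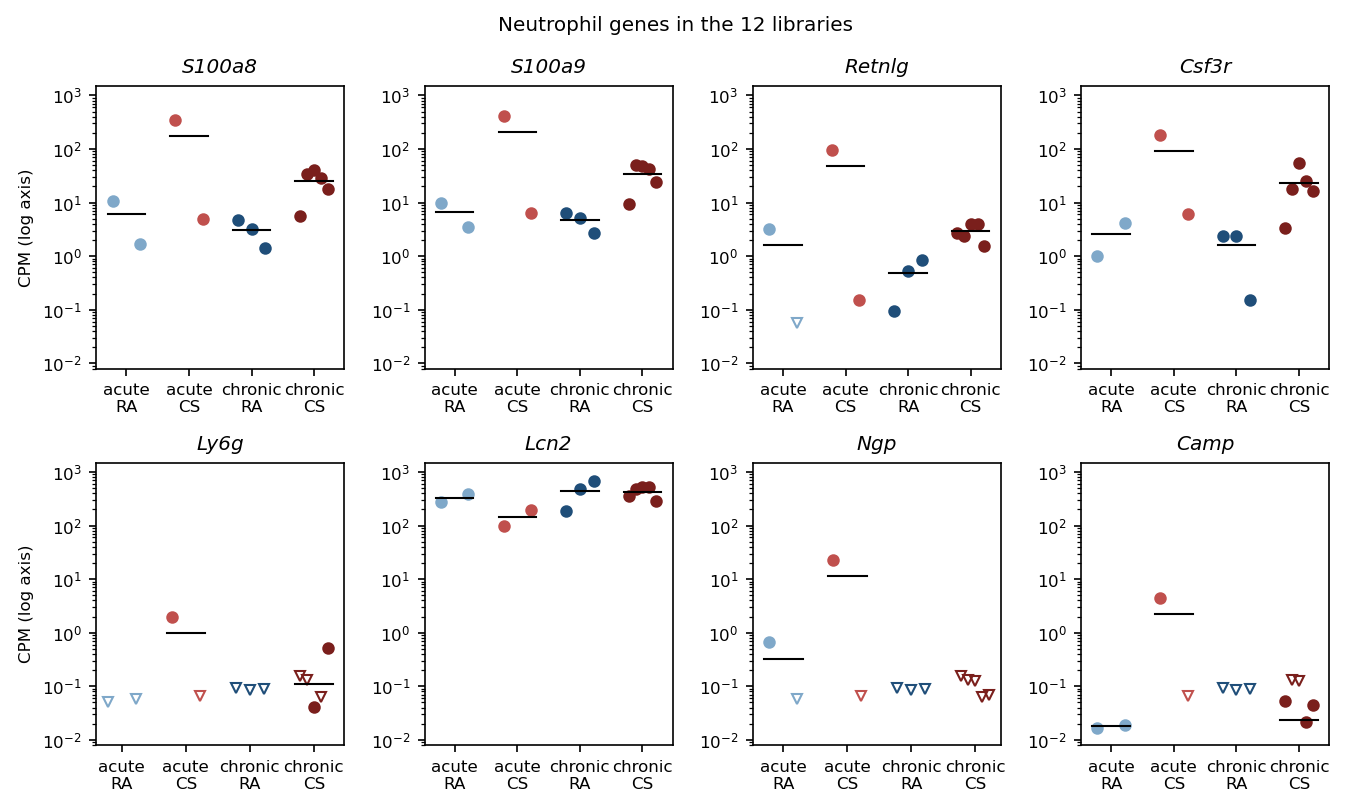
CPM (log axis) of the 8 neutrophil genes in the 12 libraries, 1 filled circle per library and a bar at each group's mean. Open triangles mark libraries with no count, drawn at the CPM of 3 counts. For S100a8, acute CS F lies at 349 CPM and acute CS M at 4.97 CPM, and the 5 chronic CS libraries lie above the 3 chronic RA libraries.

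To ask whether acute smoke changed the members, acute CS was compared with acute RA. S100a8 was counted at 349 CPM in the F and 4.97 CPM in the M library of acute CS, against 10.5 CPM in acute RA F and 1.68 CPM in acute RA M. S100a9 stood at 413 and 6.36 CPM in acute CS F and M, and at 9.97 and 3.52 CPM in acute RA F and M. The 2 acute CS libraries were thus far apart, and acute CS M lay between the RA libraries for both calprotectin genes. Retnlg reached 94.5 CPM in acute CS F but 0.152 CPM (7 counts) in acute CS M, with 3.18 CPM in acute RA F and no count in acute RA M. Csf3r reached 179 CPM in acute CS F and 6.14 CPM in acute CS M, with 0.997 and 4.09 CPM in acute RA F and M, and was the only one of these 4 genes with both CS libraries above both RA libraries. Of all genes tested, 27.4% had both acute CS libraries higher.

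Acute CS F exceeded the mean of the acute RA libraries 57.2-fold for S100a8, 61.2-fold for S100a9, 59.5-fold for Retnlg, 70.4-fold for Csf3r and 68.2-fold for Ngp. The same ratios for acute CS M were 0.813 for S100a8, 0.943 for S100a9, 0.0956 for Retnlg and 2.42 for Csf3r. In the fit across all 12 libraries, the acute log2 fold change was 4.85 for S100a8 (standard error, SE, 1.58, adjusted p = 0.141) and 4.96 for S100a9 (SE 1.45, adjusted p = 0.1004), from the quasi-likelihood test of edgeR, adjusted by Benjamini-Hochberg over 21440 genes. For Csf3r it was 5.19 (SE 1.67, adjusted p = 0.137 in edgeR) and for Retnlg 4.89 (SE 2.18, adjusted p = 0.306 in edgeR). Of the 7 members tested, 0 passed an adjusted p of 0.05 in edgeR, where 3.47% of all genes did. Ly6g was among the 7 through CS libraries alone, as it had no count in RA, so its direction was fixed, and no median is drawn over the members. At an unadjusted p under 0.05 there were 5 of 7, S100a8, S100a9, Retnlg and Csf3r higher and Lcn2 lower, against 15.7% of all genes in either direction. DESeq2 called 3 of them, S100a8 (adjusted p = 0.0114), S100a9 (DESeq2 adjusted p = 0.00370) and Csf3r (DESeq2 adjusted p = 0.0112), where it called 10% of the genes it gave an adjusted p. With no filter on low counts, edgeR called S100a9 alone of the members (adjusted p = 0.0406) and 2.74% of all genes. Without acute CS F, the fitted values were -0.30 for S100a8, -0.084 for S100a9, -3.36 for Retnlg and 1.28 for Csf3r. Without acute CS M, they were 5.83 for S100a8, 5.93 for S100a9 and 6.14 for Csf3r. Each of these fits rests on a lone CS library, assumed to vary like the other groups, so no calls are drawn from them. Camp entered the fit without acute CS M only through acute CS F, so its direction there was fixed. An exact two-sided permutation test of 2 against 2 libraries cannot go below 0.333.

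**Figure D2:**
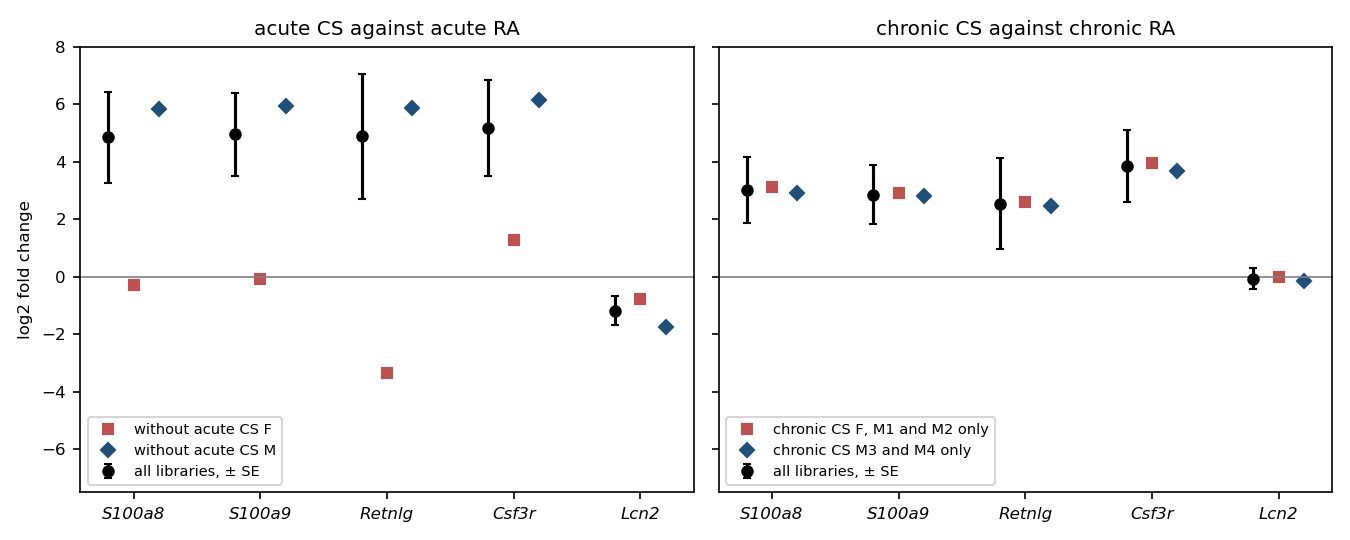
Log2 fold change of CS over RA from the edgeR fit for 5 neutrophil genes, acute on the left and chronic on the right. Black circles use all libraries (± standard error), and coloured points leave libraries out as the legends say. Leaving out acute CS F takes S100a8 from 4.85 to -0.30, while both chronic subsets keep it near 3, at 3.13 and 2.91.

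Ngp, Camp and Ly6g were highest in acute CS F and had few or no counts elsewhere. Ngp had 1144 counts there (22.5 CPM) and 39 counts in acute RA F (0.659 CPM), and no count in the other 10 libraries. Relative to S100a8 by FPKM, Ngp stood at 0.0365 in acute CS F and 0.0355 in acute RA F, the only 2 libraries that held it. Camp had 224 counts in acute CS F (4.40 CPM) and at most 2 counts in any other library. It did not pass the expression filter and was not tested over all libraries, and its ratio of acute CS F to the acute RA libraries, which held 2 counts in all, was 246 (95% interval 67.4 to 2047, counting error only). Ly6g had 102 counts in acute CS F (2.002 CPM), 23 in chronic CS M4 (0.520 CPM) and 1 in chronic CS M2, and none in the other 9 libraries. Its level in acute CS F was at least 37.3-fold higher than the acute RA libraries, with 3 counts per library as the floor. Thus the defining surface gene of the list was at 0 in 3 of the 5 chronic CS libraries, although S100a8 was detected in all of them.

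In chronic exposure, S100a8 was counted at 5.67, 33.9, 40.9, 28.6 and 18.1 CPM in CS F, M1, M2, M3 and M4, and at 4.64, 3.28 and 1.43 CPM in RA F, M1 and M2. S100a9 was counted at 9.24, 50.8, 47.2, 42.1 and 24.5 CPM in the CS libraries and 6.48, 5.18 and 2.65 CPM in the RA libraries, in the same order. All 5 CS libraries lay above all 3 RA libraries for both subunits, and CS F came nearest to RA. Mean levels were 25.4 ± 13.8 CPM (SD, n = 5) against 3.12 ± 1.61 CPM (SD, n = 3) for S100a8, a ratio of 8.17, and 34.8 ± 17.5 against 4.77 ± 1.95 CPM for S100a9, a ratio of 7.28.

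Csf3r was counted at 3.36, 18.3, 54.2, 25.02 and 16.6 CPM in chronic CS F, M1, M2, M3 and M4 and at 2.35, 2.36 and 0.149 CPM in chronic RA F, M1 and M2. Its mean ratio, 14.5, was the highest of the members that had counts in both groups. Retnlg was counted at 2.68, 2.38, 3.99, 3.95 and 1.56 CPM in CS, and at 0.0940, 0.518 and 0.864 CPM in RA, a mean ratio of 5.91. Neither gene overlapped between the groups, so 4 of the 8 members had every chronic CS library above every chronic RA library, as did 3.92% of all genes tested.

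By edgeR's quasi-likelihood test with adjustment over all genes, the chronic log2 fold change was 3.03 for S100a8 (SE 1.15, adjusted p = 0.397), 2.87 for S100a9 (SE 1.04, adjusted p = 0.383) and 3.86 for Csf3r (SE 1.26, adjusted p = 0.347). Retnlg stood at 2.55 (SE 1.59, adjusted p = 0.575 in edgeR). Of the 7 members tested, 0 passed the adjusted limit in edgeR, nor did any gene of the whole table (0%). Ngp was among the 7 without a count in any chronic library, so it could not be called here. At an unadjusted p under 0.05, S100a8, S100a9 and Csf3r were higher, 3 of 7, where 5.57% of all genes were. DESeq2 called Csf3r alone of the members (adjusted p = 0.0291) and 2.91% of all genes with an adjusted p. The exact two-sided permutation test on log2 CPM gave p = 0.0357 for each of S100a8, S100a9, Retnlg and Csf3r, the smallest it can give for 5 against 3 libraries. No adjustment was made over the 8 members for which it was run.

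The chronic CS libraries differed in depth, with F, M1 and M2 between 18821438 and 22885446 counts and M3 and M4 at 47494020 and 45436986. With only F, M1 and M2 kept in chronic CS, the log2 fold change was 3.13 for S100a8 and 3.98 for Csf3r, and with only M3 and M4 it was 2.91 and 3.68. The direction was therefore the same in the shallower and the deeper libraries. No log2 fold change of the acute comparison differed from its chronic counterpart at the adjusted limit in edgeR: the difference was 1.82 for S100a8 (SE 1.70, adjusted p = 0.761) and 1.33 for Csf3r (SE 1.78, adjusted p = 0.856), with 0 of 7 members and 0.452% of all genes called, and 0 members at an unadjusted p under 0.05 or with DESeq2, which called 5.33% of all genes with an adjusted p. For that difference, Ngp had no count in any chronic library and Ly6g none in any RA library, so their estimates were not determined. Between the room air controls, chronic against acute, 0 of 7 members and 0% of all genes were called by edgeR, again with 0 members at an unadjusted p under 0.05. Ly6g, among the 7, could not be called between these controls. DESeq2 called Ngp there (adjusted p = 0.00469), a gene counted in 1 of the 5 RA libraries, along with 1.55% of all genes with an adjusted p.

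The balance between members was also followed, since it does not depend on how much of a library they take up. S100a9 stood at 1.26 to 2.78 times S100a8 by FPKM across the 12 libraries (median 1.91), although S100a8 itself ranged from 1.43 to 349 CPM. Csf3r relative to S100a8 was more variable, from 0.0182 to 0.467, and Lcn2 relative to S100a8 ranged from 0.0755 in acute CS F to 124 in chronic RA M2.

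S100a8 was also set against Ptprc, the pan-leukocyte gene for CD45. By FPKM the ratio was 13.4 to 37.1 in the 5 chronic CS libraries and 3.05 to 6.05 in the 3 chronic RA libraries, which did not overlap. In the acute groups it was 32.4 in CS F and 0.851 in CS M, and 2.26 to 14.1 in RA. Ptprc itself was counted at 285 and 154 CPM in acute CS F and M and at 19.8 and 19.6 CPM in acute RA F and M, so acute CS M held much leukocyte RNA with little of the calprotectin genes. Chronic CS libraries held 11.1 to 54.3 CPM of Ptprc and chronic RA libraries 12.4 to 20.2 CPM, an overlap. These ratios were chosen after the levels were seen and were not tested.

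**Figure D3:**
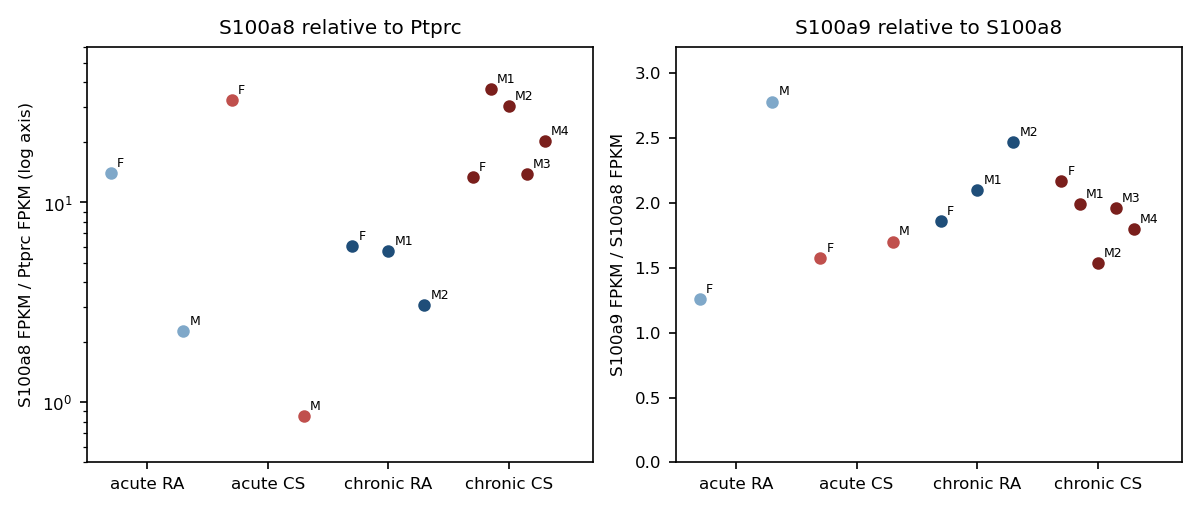
Ratio of S100a8 to Ptprc (left, log axis) and of S100a9 to S100a8 (right, linear axis), by FPKM, in each library labelled by sex and number. The left ratio is 13.4 to 37.1 in chronic CS and 3.05 to 6.05 in chronic RA, while the right ratio stays between 1.26 and 2.78 in all 12 libraries.

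Lcn2 did not follow the other members, and its FPKM exceeded that of 97.2% to 99.7% of the genes in each library. It was counted at 99.7 and 193 CPM in acute CS F and M and at 273 and 390 CPM in acute RA F and M, so both CS libraries lay below both RA libraries, as they did for 22.5% of all genes tested. The log2 fold change was -1.18 (SE 0.51, adjusted p = 0.284 in edgeR), and it stayed negative, at -0.78, without acute CS F. In chronic CS F, M1, M2, M3 and M4 it was counted at 348, 477, 516, 516 and 291 CPM, and in chronic RA F, M1 and M2 at 189, 490 and 670 CPM. The chronic groups overlapped, with a log2 fold change of -0.066 (SE 0.36, adjusted p = 0.966 in edgeR). Within acute CS, acute RA and chronic RA the female library had the lowest Lcn2, and in chronic CS only M4 was below F. The library with the most S100a8, acute CS F, had the least Lcn2 of all 12.

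Pearson's r between a member's log2 CPM and the mean of the other tested members, over 12 libraries that share depth and makeup across genes, was 0.96 for S100a9, 0.95 for S100a8, 0.86 for Retnlg, 0.75 for Csf3r, 0.69 for Ly6g and 0.58 for Ngp, but -0.53 for Lcn2. Without acute CS F it was 0.88 for S100a9, 0.89 for S100a8, 0.74 for Retnlg and 0.55 for Csf3r, and 0.080 for Lcn2, 0.26 for Ly6g and -0.087 for Ngp. The likeness of Ly6g and Ngp to the others thus rested on that library.

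Pglyrp1, which encodes a peptidoglycan recognition protein of secondary granules, also had counts in every library, at lower CPM than Lcn2. It was counted at 46.7 and 45.5 CPM in acute CS F and M and 45.6 and 52.7 CPM in acute RA F and M. Chronic levels were 36.1 to 91.7 CPM in CS and 20.4 to 88.7 CPM in RA, with the lowest, as for Lcn2, in chronic RA F. Its r with Lcn2 was 0.71 over the 12 libraries. Among all genes tested, Serpina3n, a secreted inhibitor of serine proteases, had the highest r with Lcn2 (0.94, and 0.90 without acute CS F), and ranged from 62.9 to 445 CPM. Sema3a, a secreted guidance cue that ranked 6, had 0.87, and the LEC genes Pdpn and Reln 0.84 and 0.80. Pdpn and Reln were the highest of the lymphatic endothelial genes listed. The others ran from 0.53 for Lyve1 to 0.78 for Ccl21a, with Prox1 at 0.55. These genes were looked up after the pattern of Lcn2 was seen, and the values describe 12 libraries without a test.

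**Figure D4:**
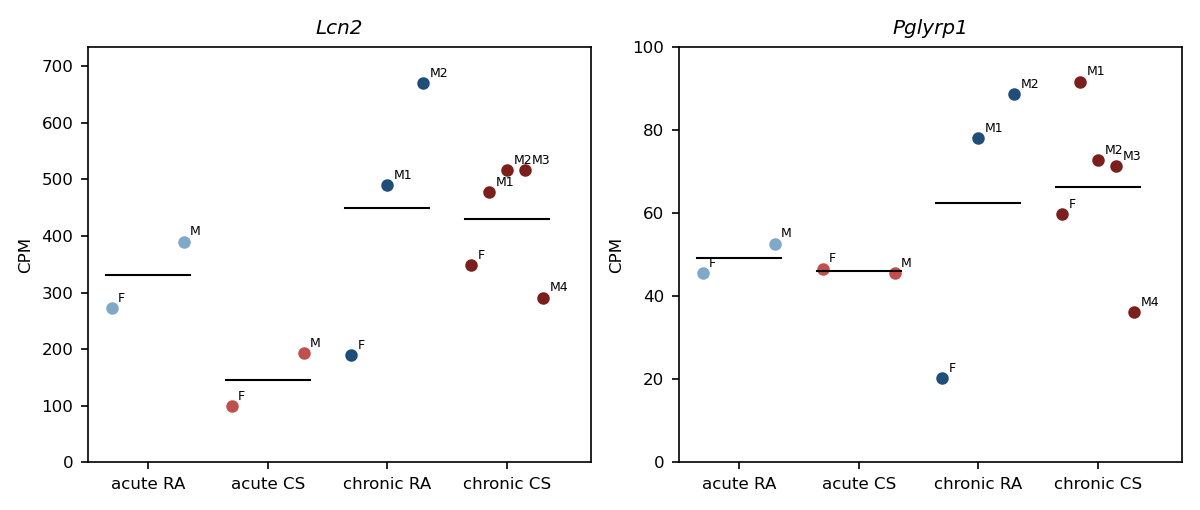
CPM (linear axis from 0) of Lcn2 and Pglyrp1 in each library, labelled by sex and number, with a bar at each group's mean. Lcn2 is lowest in acute CS F at 99.7 CPM, and both genes are low in chronic RA F, at 189 and 20.4 CPM.

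Other neutrophil genes were taken from lists by role. Azurophil granule genes (Mpo, Elane, Prtn3, Ctsg and Ms4a3) were close to absent, with a summed level of at most 0.976 CPM in any library, and only Prtn3 of the 5 was tested. Elane, for neutrophil elastase, had no count in any library. Of 10 further granule genes, 8 were tested and 0 were called in either comparison. Their median log2 fold change was 3.64 in the acute comparison (3.17 with genes absent from a group set at their 3-count bound) and 2.42 in the chronic one, against 0.041 and 0.014 over all genes. Without Olfm4, whose mean lay under the 3-count floor in both chronic groups, the chronic median was 2.20. Olfm4, one of the 8, had no count in any RA library, so its direction was fixed. In this and the other lists, the direction of a gene without a count in 1 of the groups compared is fixed in the same way, and the medians are descriptions only. Ltf, for lactoferrin of secondary granules, was picked after its values were seen: it had 25.9 CPM in chronic CS M3, 11.2 CPM in acute CS F, 1.41 CPM in chronic CS M2, and no more than 0.298 CPM in any other library. Ltf was thus highest in a library without a count of Ngp or Ly6g. Mmp9, for the gelatinase of tertiary granules, was counted at 117 and 6.40 CPM in acute CS F and M and at 3.95 and 0.757 CPM in acute RA F and M. In chronic CS it was counted at 0 to 14.4 CPM and in chronic RA at 1.504 to 13.6 CPM, an overlap. Hp, for haptoglobin, and Cybb, for the NADPH oxidase subunit, were highest in acute CS F, at 161 and 283 CPM.

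Of 17 genes for surface proteins and other products of mature neutrophils, 14 were tested. Some had no count in 1 of the groups compared, such as Gm5483, with none in chronic RA and 31 counts in 1 chronic CS library, so that their chronic direction was fixed. In the acute groups Gm5483 had 207 and 5 counts in CS F and M and 18 counts in RA F. The median log2 fold change was 4.31 in the acute comparison and 2.68 in the chronic one (2.37 with bounds). In the acute comparison 1 of 14 was called, beside 3.47% of all genes, and 7 had an unadjusted p under 0.05 in edgeR, beside 15.7% of all genes. In the chronic comparison 0 were called, and 5 were higher at an unadjusted p under 0.05 in edgeR, beside 5.57% of all genes. The called gene, Wfdc21, which encodes a small whey acidic protein domain protein, was counted at 32.0 and 18.2 CPM in acute CS F and M against 1.03 and 0.662 CPM in acute RA F and M (log2 fold change 4.88, SE 1.02, adjusted p = 0.0248 in edgeR). Unlike S100a8, it was high in both acute CS libraries. Fpr1, the formyl peptide receptor gene, was likewise at 46.4 and 31.6 CPM in acute CS F and M and at 2.72 and 0.776 CPM in acute RA F and M (edgeR's adjusted p = 0.149). Trem1, an activating receptor gene of neutrophils and monocytes, instead had 93.0 CPM in acute CS F and 2.34 CPM in acute CS M. Cxcr2, the chemokine receptor that draws neutrophils into tissue, was picked after its values were seen: it was counted at 1.94 to 12.5 CPM in chronic CS and 0.0894 to 1.04 CPM in chronic RA, without overlap (log2 fold change 3.78, SE 1.10, adjusted p = 0.314 in edgeR). Of all genes tested, 3.92% had every chronic CS library above every chronic RA library. Members of the Stfa cluster share near-identical copies and their counts are uncertain.

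Among 6 transcription factor genes of the lineage, Spi1, which encodes PU.1, was the only one called, beside 3.47% of all genes in the acute comparison. It was counted at 131 and 52.9 CPM in acute CS F and M against 6.07 and 5.05 CPM in acute RA F and M (log2 fold change 4.05, SE 0.73, adjusted p = 0.0139 in edgeR). Cebpd and Cebpb, the most abundant of the 6 by mean CPM, had log2 fold changes of 0.031 and -0.60 in the acute comparison. In the chronic comparison these were 0.40 and 0.75. Cebpe, which is needed for secondary granules, reached 0.569 CPM in acute CS F and no more than 0.298 CPM elsewhere. The list's median log2 fold change was 2.58 in the acute comparison (2.34 with bounds) and -0.059 in the chronic one (0.27 with bounds, a change of sign). Of 8 ligands that raise or attract neutrophils, 6 were tested and 0 called in either comparison, with medians of 1.87 and 0.095. Cxcl2, a ligand of CXCR2, was counted at 132 and 10.3 CPM in acute CS F and M against 3.16 and 1.80 CPM in acute RA F and M (log2 fold change 4.84, adjusted p = 0.0508 in edgeR). Cxcl15, highest of the 8 by mean CPM, was at 7.14 to 49.1 CPM in chronic CS and 2.29 to 7.03 CPM in chronic RA. These did not overlap, as for 3.92% of all genes (adjusted p = 0.367 in edgeR). In the acute groups it was at 3.12 to 66.9 CPM in CS and 4.05 to 9.74 CPM in RA, an overlap. Csf3, for the ligand of the receptor that Csf3r encodes, was at 1.96 to 9.10 CPM in all libraries, with no separation of groups.

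The 7 receptors for the secreted members were measured in the same cells, and 0 were called in either comparison (median log2 fold change 0.019 acute and 0.40 chronic). Slc22a17, a receptor gene for lipocalin-2, was lower in every CS library than in every RA library of its time point, at 54.3 and 59.1 against 84.0 and 89.5 CPM in the acute groups, a separation shared by 22.5% of all genes. In the chronic groups it was at 57.6 to 76.9 CPM in CS and 79.4 to 98.2 CPM in RA, and 5.49% of all genes were separated in this direction. The log2 fold changes were -0.61 (SE 0.17, adjusted p = 0.0755 in edgeR) and -0.45 (SE 0.12, adjusted p = 0.288 in edgeR). Ager, for a receptor of calprotectin that is also a marker of alveolar epithelium, was at 61.9 to 229 CPM in chronic CS and 21.2 to 33.9 CPM in chronic RA. In the acute groups it was at 424 CPM in CS F and 25.01 CPM in CS M, on either side of the 69.4 and 67.4 CPM of RA F and M. Bsg, for basigin, another receptor of S100a9, lay between 433 and 616 CPM in all libraries. In the chronic groups it was at 433 to 511 CPM in CS and 518 to 616 CPM in RA. It was thus lower in CS without overlap, as were 5.49% of all genes (log2 fold change -0.28, SE 0.11, adjusted p = 0.424 in edgeR). Its acute groups overlapped.

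Markers of other cells are given with their summed CPM, whether or not they moved with the members. The summed level of the 7 members without Lcn2 was 1065 and 17.6 CPM in acute CS F and M, 25.4 and 9.31 CPM in acute RA F and M, 21.01 to 146 CPM in chronic CS and 5.10 to 13.6 CPM in chronic RA. For each count of called genes below, 3.47% of all genes were called in the acute comparison in either direction. Among 8 pan-leukocyte genes, 7 were called higher in the acute comparison, with sums of 1642 to 2477 CPM in CS and 260 to 265 CPM in RA. In the chronic groups these sums were 175 to 457 and 171 to 258 CPM, which overlapped. The 6 monocyte genes summed to 110 to 459 CPM in acute CS and 20.9 to 45.5 CPM in acute RA (1 called), and to 7.35 to 71.6 CPM in chronic CS and 7.86 to 23.5 CPM in chronic RA. Alveolar macrophage genes (10 tested, 2 called higher and 1 lower in the acute comparison) summed to 2148 to 2342 CPM in acute CS and 705 to 799 CPM in acute RA. Their chronic sums were 646 to 1054 CPM in CS and 623 to 705 CPM in RA. Lymphoid genes (8 tested, 3 called higher in the acute comparison) summed to 167 to 171 CPM in acute CS and 16.9 to 17.0 CPM in acute RA, and to 29.4 to 49.4 CPM in chronic CS and 41.8 to 65.4 CPM in chronic RA.

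Epithelial genes were detected as well, although EPCAM-positive cells were gated out. The 7 airway genes summed to 2524 CPM in acute CS F and 13.9 CPM in acute CS M, to 1183 CPM in acute RA F and 3.75 CPM in acute RA M, to 80.9 to 641 CPM in chronic CS and to 3.95 to 48.3 CPM in chronic RA. The 7 alveolar genes summed to 6341 CPM in acute CS F and 208 CPM in acute CS M, to 746 to 1064 CPM in acute RA, to 914 to 4559 CPM in chronic CS and to 244 to 464 CPM in chronic RA. Both lists thus separated chronic CS from chronic RA without overlap, as S100a8 did, and 0 of the 14 genes were called in either comparison. Epcam itself reached 16.1 CPM in acute CS F and no more than 6.33 CPM elsewhere. Their part in the members' levels was not tested. Erythroid genes (0 of 6 tested called) summed to 10.7 CPM in acute CS F and 698 CPM in acute CS M, so the library with the highest member sum had the lower erythroid sum of the pair. In chronic CS the erythroid sum was 9.69 to 349 CPM and in chronic RA 196 to 433 CPM. Platelet genes (0 of 6 called) summed to 19.0 to 50.5 CPM in acute CS and 12.3 to 17.0 CPM in acute RA, and to 16.2 to 43.3 CPM in chronic CS and 30.7 to 93.7 CPM in chronic RA. Summed levels of genes of mast cells, basophils and eosinophils (0 of 6 called) were 5.49 to 6.60 CPM in acute CS and 0.0946 to 1.99 CPM in acute RA, and 0 to 7.15 CPM in chronic CS and 0.268 to 0.689 CPM in chronic RA. Of all genes, 3.47% were called in the acute comparison in either direction. Blood endothelial genes (8 tested, 5 called higher in the acute comparison) summed to 4619 to 5729 CPM in acute CS and 2702 to 2927 CPM in acute RA. Of the lymphatic endothelial genes, Prox1 was at 1042 to 2476 CPM and Ccl21a, which has near-identical copies, at 0.0785 to 1.06 CPM, and 3 of 8 were called lower in the acute comparison, with sums of 6485 to 9822 CPM in acute CS and 15254 to 17066 CPM in acute RA. None of these lists held a called gene in the chronic comparison.

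**Figure D5:**
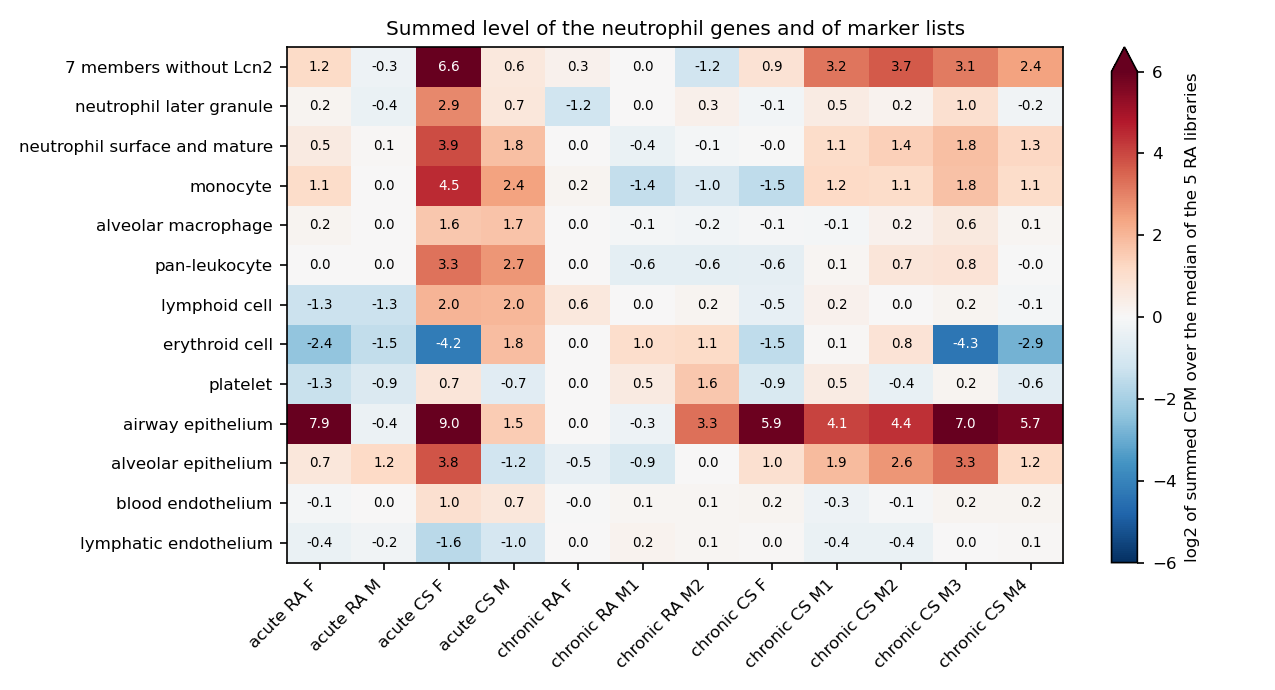
Summed CPM of the 7 neutrophil genes without Lcn2 and of 12 marker lists in each library, as log2 of the ratio to the median of the 5 RA libraries (colour and printed value, with the colour scale ending at 6). Acute CS F is high for the members, leukocytes and epithelium, while acute CS M is high for leukocytes and near the RA median for the members.

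The genes whose log2 CPM was most like the mean of the 7 tested members over the 12 libraries were Il1b (Pearson's r 0.94), Cdh1, Cldn18, Gm11655, Clic3, Scgb3a1, Nfe2, Sorl1, Ms4a4c and Lpin2 (0.90). Il1b, for the inflammatory cytokine interleukin-1β, was counted at 556 and 18.3 CPM in acute CS F and M and 27.3 and 14.2 CPM in acute RA F and M. In chronic CS it was counted at 12.9 to 87.9 CPM and in chronic RA at 5.24 to 7.86 CPM, without overlap, as for 3.92% of all genes. As Il1b was chosen for its likeness to the members in these same libraries, this separation is no separate result. Cdh1, for E-cadherin, and Cldn18, for a tight junction protein of lung epithelium, were at 49.7 and 103 CPM in acute CS F and at 3.34 to 4.14 and 2.76 to 3.66 CPM in chronic RA. Nfe2 is a transcription factor gene of megakaryocytes and myeloid cells. Without acute CS F, 0 of these 10 genes were among the 10 most alike, and Il1b ranked 14 (r 0.88).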

How the data were processed

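RNA of LECs sorted from mouse lung was sequenced in 12 libraries prepared with SMART-Seq v4 and Nextera XT kits. The authors deposited 1 table of read counts by Ensembl identifier per library, without normalization, made by quality control with FastQC 0.11.9 (per the labels), the DEE2 workflow with Skewer and Minion, and alignment to GRCm38/mm10 and counting with STAR. Which annotation release was counted, and with which strand setting, is not given in the sources used here. Groups, sex and numbers were taken from the labels, and pooling and exposure from the study's methods.

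Symbols, coordinates and exon lengths were read from GENCODE M21 on GRCm38, in which 52403 of 52636 identifiers were found, and start regions from RefSeq, which held all 8 members. Counts were fitted in R 4.3.3 with edgeR 4.0.16 (filterByExpr, TMM, quasi-likelihood F-test), with all 12 libraries in 1 fit by group. P-values were adjusted by Benjamini-Hochberg over 21440 genes, with a limit of 0.05. DESeq2 1.42.0 was an alternative. Log2 CPM of single libraries used a prior count of 2, and FPKM used union exon length. The fit was tested on simulated counts. Exact permutation tests were two-sided, doubling the smaller tail. P-values measure the spread between libraries. Figures were drawn with matplotlib 3.10.9 in Python 3.11.15.

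The alternatives were DESeq2, total count alone for scaling, all genes kept whatever their counts, sex as a covariate, a replicate block, only the groups compared, and leaving out each library. Subsets of chronic CS and the likeness to Lcn2 were added after the data were seen. The members and lists were chosen with earlier results of these data known. Genes are named as members, as up to 4 of a list by mean CPM, as called neutrophil genes, or as the 10 most like the members. Ptprc, Prox1 and Epcam were named as checks of the sort. Some further genes, such as Csf3, Cebpe, Ccl21a and Gm5483, were named outside these rules. The lists cover neutrophil granules, surface, transcription factors, ligands and receptors, and other leukocytes, erythroid cells, platelets, epithelium and endothelium.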

Additional observations from a re-analysis of the deposited data

Results flagged for a closer look

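Ly6g in chronic CS M4, at 0.520 CPM (23 counts), stood apart from the other 4 chronic CS libraries by Dixon's test for 5 values, at a critical value of 0.71. The others held 1 count in M2 and none in F, M1 and M3. The test was run on chronic CS only, as the other groups held fewer than 4 libraries, and chance is set to pass it in 5% of groups per gene.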

How the results depend on the processing

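The number of members called was 0 in every comparison of the main analysis. In the acute comparison it was 1 with no filter on low counts (2.74% of all genes called), 3 with DESeq2 (10%) and 0 to 4 when leaving out 1 library (3 to 858 of all genes called), with 4 only without acute CS M. These 4 include Camp, which entered that fit only through acute CS F, so its direction there was fixed. The fit rests on a lone acute CS library, so no calls are drawn from it. With DESeq2 the number of members called was 1 in the chronic comparison (2.91% of all genes) and 1 between the room air controls (1.55%). For the acute minus chronic effect it was 0 under every alternative. The replicate block gave 0 members called in the acute, chronic and acute minus chronic comparisons. Libraries with the same sex and number had deviations from their group means with r = 0.069 acute, and -0.042, 0.034 and 0.0060 chronic, over all genes tested, so the numbers were not treated as pairs. The log2 fold change of Lcn2 in the chronic comparison was 0.033 by library size alone, 0.15 with the replicate block, 0.0092 with chronic CS F, M1 and M2 only, and -0.43 to 0.35 when leaving out 1 library. Retnlg between the controls turned to 0.60 with sex as a covariate. When leaving out 1 library, acute values ran from -0.30 to 6.72 for S100a8, -0.084 to 5.93 for S100a9, -3.36 to 13.77 for Retnlg and -6.65 to 11.70 for Ngp, the lowest in each case without acute CS F. Values between the controls ran from -1.78 to 0.89 for S100a8, -1.08 to 0.44 for S100a9, -2.69 to 7.20 for Retnlg and -1.33 to 0.68 for Csf3r. The acute minus chronic values ran from -3.33 to 3.69 for S100a8, -2.95 to 3.07 for S100a9, -5.91 to 11.22 for Retnlg and -2.58 to 2.64 for Csf3r. In the chronic comparison the 16 alternatives gave 2.69 to 3.61 for S100a8, 2.58 to 3.24 for S100a9, 2.08 to 3.23 for Retnlg and 3.29 to 4.24 for Csf3r, all positive. The cause of the changes of sign and of call was not tested. The acute direction of S100a8, S100a9, Retnlg and Ngp thus rests on acute CS F, while Csf3r stayed positive and Lcn2 negative without it. Ly6g, Ngp and Camp lie near the floor of 3 counts in most libraries, so that small differences in them were not detectable at this depth.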
